A study of Drosophila melanogaster with 2 samples.

Results

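The vacuolar-type proton pump (V-ATPase) is the subject here: 34 loci for its subunits and accessory proteins, of 13816 loci in the deposited transcript table. The choice rests on names, though it was made with earlier results of these data known. 20 loci carry a symbol starting with Vha in that table, and 14 more carry such a symbol today, matched by NCBI gene ID, while the table lists them under CG numbers. Some of the 20 carry older names there (Vha16 for Vha16-1, Vha36 for Vha36-1), and current names are used except for VhaM8.9, now ATP6AP2. Among the 14 are the paralogues Vha100-4 (CG7678) and Vha100-5 (CG12602). Counts are given for the 20 named loci and for all 34. By role, 13 loci encode V1 subunits, 18 encode V0 subunits and 3 encode accessory proteins.

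Poly(A) RNA was sequenced from posterior midguts, the last stretch of the fly midgut before the hindgut, of wild-type Oregon R females raised at a single temperature. The labels give guts of 45-day-old and of 5-day-old flies, with 3 biological replicates per age. RNA came from pools of midguts, and the p-values below rest on how these pools differ, not on single flies. The table names the sets of 3 libraries treatment and control. Which set is which age is not given in the labels or headers. Should control be the younger age, a value higher in treatment would be one higher at 45 days. A pool of whole tissue cannot tell fewer cells of a type apart from less RNA per cell.

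The pump uses ATP to move protons across membranes. Its cytosolic V1 part hydrolyses ATP, and its membrane-bound V0 part carries the protons through a ring of small c subunits turning against the large a subunit. V1 and V0 come apart and rejoin, which sets how much pump is active. V-ATPases acidify lysosomes and endosomes in all cells, and in flies the copper cells of the middle midgut, upstream of the posterior midgut, secrete acid with them. Several subunits have more than 1 gene. In yeast and mammals the a paralogues decide in which membrane the pump sits.

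Libraries held 9581965 to 18001958 reads over loci in treatment and 12146650 to 16739547 in control. Levels are TMM-scaled CPM, or counts per 1000000 reads, where TMM is edgeR's scaling factor for library composition, and levels compared between loci are CPM per kb of transcript. Calls are edgeR quasi-likelihood tests over all 8137 loci that passed the filter, at a Benjamini-Hochberg adjusted p of at most 0.05. Between the 2 sets 25% of these loci were higher in treatment and 24.1% lower, so a call by itself is common. Scaling matters for small changes. With TMM the median log2 fold change of all loci was 0.01, and with total reads alone it was 0.22, so changes below are relative to the TMM reference unless stated.

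The 34 loci fell into widely used and nearly silent genes. 17 had over 2000 reads in all 6 libraries together, 3 had over 100 and up to 2000, 10 had between 1 and 100, and 4 had none. The 4 loci without a read were Vha16-2, Vha16-3, Vha14-2 and VhaM9.7-d, which encode paralogues of subunits c, F and e. A count of 0 allowed up to 0.0777 reads per 1000000 in treatment and 0.0674 in control, by counting error alone. VhaPPA1-2, Vha36-2, Vha36-3 and Vha16-4 had 1 to 3 reads in all.

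In 3 of 4 pairs of paralogues that lie next to each other on the chromosome, the pair differed widely in reads. Positions are given in the build of the deposited table, which the table does not name. Vha68-2 (2L, 12974322 to 12978615) had 86886 reads over all libraries, and Vha68-3, which starts 170 bases further on the same strand, had 32. VhaPPA1-1 (3R, 10728048 to 10729796) had 41873 reads, and its neighbour VhaPPA1-2 had 3. Vha100-2 (3R, 14216039 to 14224876) had 24394 reads and Vha100-4 (3R, 14212555 to 14215525), 513 bases away on the same strand, had 1221. Vha16-3 and Vha16-2, 985 bases apart on 3L, had none.

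**Figure D1:**
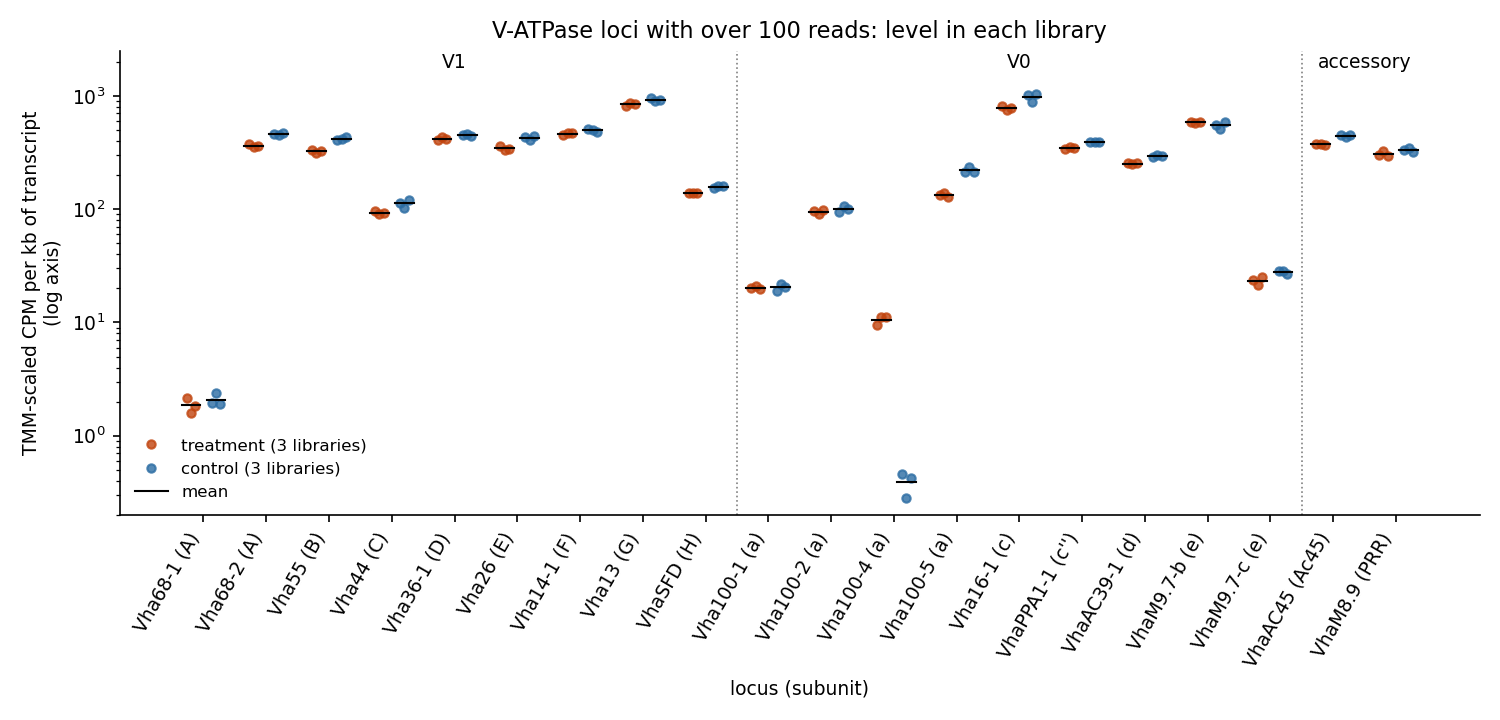
Level of each V-ATPase locus with over 100 reads in all, as TMM-scaled CPM per kb of transcript on a log axis; each point is a library (3 treatment, 3 control) and each line a mean, with V1, V0 and accessory loci set apart by dotted lines. Most loci lie close together in the 2 sets, as with Vha68-1 at 1.85 in treatment and 2.08 in control and Vha13 at 841 in treatment and 925.0 in control, while Vha100-4 averaged 10.6 in treatment and 0.387 in control.

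Among the 20 named loci, 17 were tested: 13 were lower in treatment, none was higher and 4 were not called, beside 24.1% lower and 25% higher among all loci. None was higher by DESeq2, or at an unadjusted p under 0.05 in edgeR. Over all 34, 21 were tested, with 15 lower, 2 higher and 4 not called, and 14 of the 15 had libraries that did not overlap between sets. The background for such non-overlap was 26.9% of all loci lower and 28.4% higher. Highly expressed loci are called more often, and of the 1371 loci with a mean of at least 100 CPM, 43.8% were lower and 33.5% higher, and in 43.6% the sets did not overlap and treatment was lower. All 16 V-ATPase loci above that level were compared with this background (a cutoff added after the values were seen), and 14 were lower and none higher, 13 of the 14 without overlap. The falls were small: the median log2 fold change was -0.17 over the 17 named loci and -0.21 over those 16, beside -0.06 over all 1371.

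These small falls depend on the scaling. With total reads alone, 3 named loci were lower and 3 higher, beside 1076 lower and 4127 higher of all 8137 loci. The medians of V1 and V0 loci turned positive there, at 0.019 and 0.083, under a median of 0.22 over all loci. As a plain share of all reads, the 34 loci took 1.12%, 1.07% and 1.08% in the treatment libraries, against 1.13%, 1.10% and 1.17% in the control libraries. Those shares overlap between sets. In simulated counts of this comparison over 8054 genes, 42.4% of genes changed 1.2-fold were recovered. Those genes were drawn from tested loci of any level, so that share does not give the recovery at highly expressed loci. Vha14-1, for one, was called at a log2 fold change of -0.11 (edgeR adjusted p = 0.0330).

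**Figure D2:**
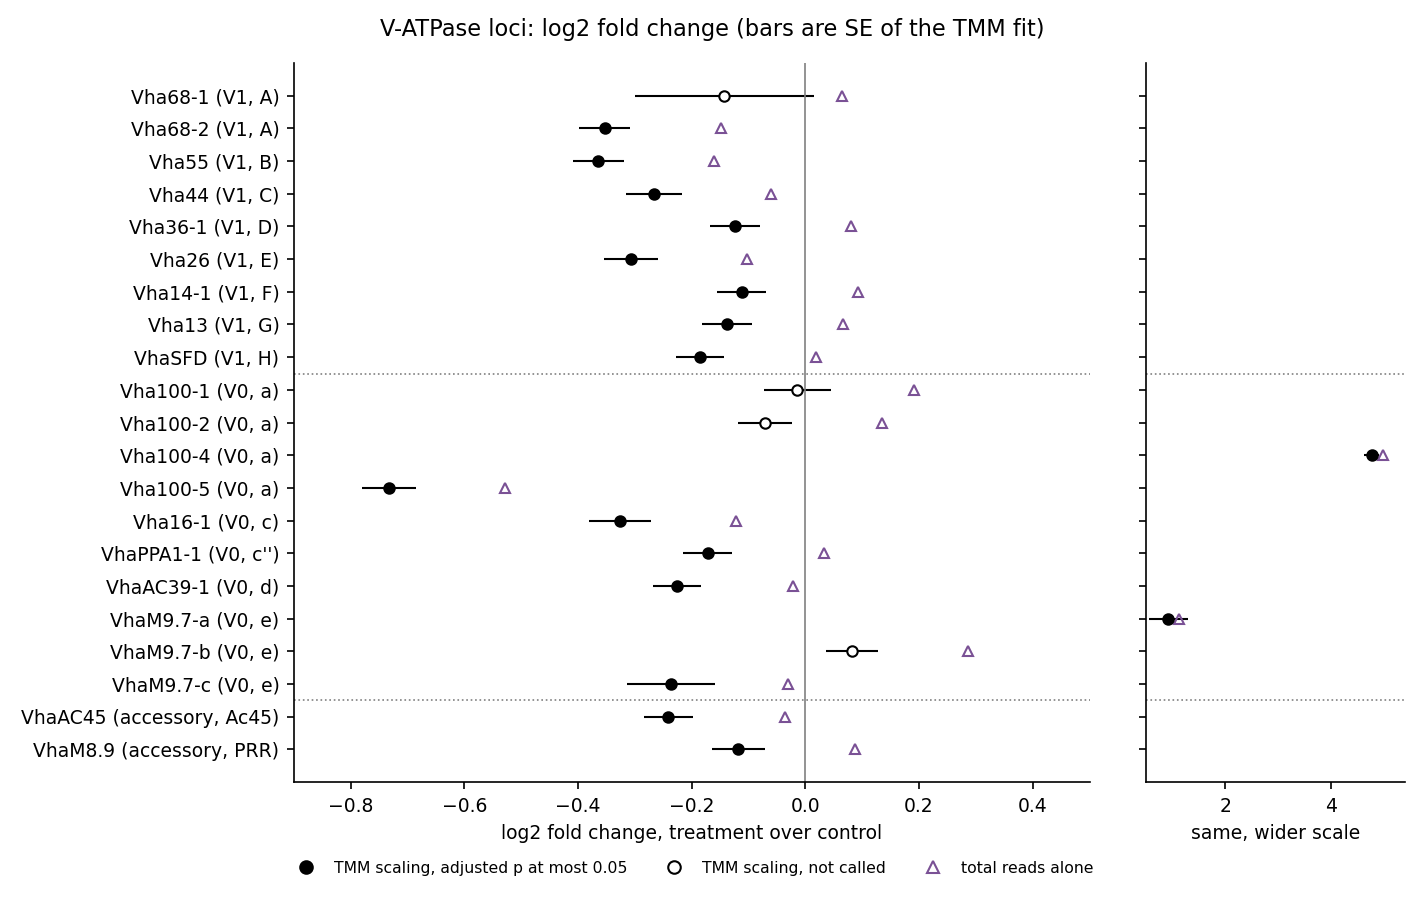
Log2 fold change of treatment over control for the 21 V-ATPase loci tested; circles are the TMM fit with its standard error (filled: adjusted p at most 0.05), triangles the same fit scaled by total reads alone, and the right panel continues the axis on a wider scale. Circles of V1 loci lie between -0.36 and -0.11, triangles lie higher throughout, and Vha100-5 and Vha100-4 stay on their own sides of 0 under both.

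Most V1 loci were lower with TMM, a direction that depends on scaling for 5 of the 9 tested. Of these 9 loci, 8 were lower in treatment, and all 8 had sets that did not overlap. Among all loci 24.1% were lower, 26.9% were lower without overlap, and 43.8% were lower among loci of at least 100 CPM. The median log2 fold change of the 9 was -0.19. With total reads alone 2 of the 9 were lower, beside 1076 of all 8137 loci. Without treatment replicate 1 (TMM) 5 of the 9 were lower, with a median of -0.29, beside 1735 lower of 8116 loci. The 2 subunits with the deepest falls form the catalytic head. Vha68-2, catalytic subunit A, had 374, 351 and 359 CPM per kb in treatment and 460.2, 454 and 470 in control. Vha55, the nucleotide-binding subunit B that alternates with A in the head, had 332, 314 and 328 CPM per kb in treatment and 410.1, 412 and 433 in control. In both, every treatment library was below every control library. The log2 fold changes were -0.35 (SE 0.04, adjusted p = 5.54e-08) for Vha68-2 and -0.36 (SE 0.04, adjusted p = 3.44e-08) for Vha55, and both stayed lower with total reads alone, at -0.15 and -0.16.

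The ratio of B to A differed by less than the spread between libraries. Vha55 over Vha68-2, in reads per base and so free of scaling, was 0.889, 0.897 and 0.914 in treatment and 0.891, 0.907 and 0.922 in control. The sets overlap, with means of 0.900 ± 0.0126 in treatment and 0.907 ± 0.0153 in control (SD, n = 3 each). The pair was chosen with earlier results known, and no test is given.

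Vha26 encodes subunit E of the peripheral stalk and Vha44 encodes subunit C, which links that stalk to V0 and leaves when the pump comes apart. Vha26 averaged 345 ± 16.9 CPM per kb in treatment and 427 ± 19.0 in control (log2 fold change -0.31, adjusted p = 2.01e-06). Vha44 averaged 93.2 ± 2.46 in treatment and 112.2 ± 9.08 in control (-0.27, adjusted p = 3.64e-05). Neither was called with total reads alone (-0.10 and -0.06). Vha44 had the lowest level of the 8 V1 subunits in both sets. Its locus shares 548 bases of span with Hmgs on the other strand, whose 6665 reads are fewer than the 32617 of Vha44, and no source used here says whether counting used strand.

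The remaining V1 loci differed less. VhaSFD, the regulatory subunit H, had a log2 fold change of -0.19 (adjusted p = 0.000507), Vha13, the stalk subunit G, one of -0.14 (adjusted p = 0.0106), Vha36-1, the central stalk subunit D, one of -0.12 (adjusted p = 0.0191) and Vha14-1, the central stalk subunit F, one of -0.11 (adjusted p = 0.0330). With total reads alone all 4 were above 0, at 0.019 for VhaSFD, 0.066 for Vha13, 0.081 for Vha36-1 and 0.093 for Vha14-1. The median over all loci was 0.22 in that run. Without treatment replicate 1 the calls of Vha36-1, Vha14-1 and Vha13 were lost (adjusted p = 0.124, 0.162 and 0.0937). Vha36-1 also lost its call without treatment replicate 3 or control replicate 2, and Vha14-1 without treatment replicate 3 or either of control replicates 1 and 2. VhaSFD shares 4688 bases of span with CG31782 on the same strand, which had 1229 reads against 30549.

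Further ratios within V1 set a locus with a deep fall over one with a small fall, so their direction follows from the fold changes above. Vha68-2 over Vha36-1 was 0.925, 0.818 and 0.858 in treatment and 1.01, 0.977 and 1.06 in control. Vha55 over Vha13 was 0.411, 0.363 and 0.386 in treatment and 0.430, 0.459 and 0.469 in control. These ratios were chosen with the values known and are given without a test.

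Vha68-1 is a second gene for subunit A. It had 111, 43 and 57 reads in treatment, against 58, 99 and 74 in control, and was not called (log2 fold change -0.14, adjusted p = 0.477). Vha68-2 supplied 99.5% of subunit A reads per base in both sets. Vha68-3, the last gene for A, had 3, 1 and 8 reads in treatment, against 3, 7 and 10 in control. Subunits D and F were likewise supplied almost wholly by Vha36-1 and Vha14-1.

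V0 loci ranged more widely in their changes. Of 10 V0 loci tested, 5 were lower in treatment, 2 were higher and 3 were not called, beside 24.1% lower and 25% higher among all loci. Their log2 fold changes lay between -0.73 and 4.77, with a median of -0.12. The V0 median was -0.19 without treatment replicate 2 and -0.18 without control replicate 1. There 8266 and 8273 loci passed the filter in place of 8137, and these medians are not over the same 10 loci. Of the 7 named in the table, 4 were lower and none higher, with a median of -0.17. Of these 7, 1 was lower and 3 were higher with total reads alone, beside 1076 lower and 4127 higher of all 8137 loci. Whether V0 and V1 differ as groups was not tested. Reads on V1 loci per read on V0 loci were 1.06, 1.08 and 1.08 in treatment and 1.06, 1.10 and 1.05 in control, which overlap. The median V1 subunit level over the median V0 subunit level was 1.09, 0.958 and 1.01 in treatment and 1.14, 1.12 and 1.12 in control, every treatment library being lower.

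The clearest change of paralogue was in subunit a, the large membrane subunit beside the proton path. Its 5 genes are Vha100-1 to Vha100-5. Vha100-5 (2L, 11738952 to 11744161) had the highest level of the 5 in every library, and its level was 132, 139.8 and 129 CPM per kb in treatment and 214, 237 and 214 in control. Every treatment library was below every control library. The log2 fold change was -0.73 (SE 0.05, adjusted p = 1.85e-14), or 0.602-fold, and it was -0.53 with total reads alone. Vha100-5 was the locus with the lowest log2 fold change of the 21 tested.

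Vha100-4 went the other way. It had 507, 309 and 362 reads in treatment, against 14, 12 and 17 in control. Its level was 9.47, 11.1 and 11.2 CPM per kb in treatment and 0.457, 0.281 and 0.424 in control, so the sets lie far apart with little spread inside either. The log2 fold change was 4.77 (SE 0.15, adjusted p = 4.94e-23), or 27.4-fold, and it was 4.98 with total reads alone. In the treatment libraries Vha100-4 still lay below Vha100-1, Vha100-2 and Vha100-5.

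The 2 named, widely used a genes did not change detectably with TMM. Vha100-2 had 96.3, 90.2 and 98.9 CPM per kb in treatment and 93.9, 105.6 and 100.03 in control (log2 fold change -0.07, SE 0.05, adjusted p = 0.229). Vha100-1, known in flies for its part in synaptic vesicles of neurons, had 20.2, 21.1 and 19.6 CPM per kb in treatment and 19.0, 21.7 and 20.7 in control (-0.01, SE 0.06, adjusted p = 0.864). Both pairs of sets overlap, and with total reads alone both were called higher, at 0.13 and 0.19. Both values lie under the median of 0.22 over all loci in that run, where 4127 of 8137 loci were higher. Vha100-2 shares 2160 bases of span with Vti1b on the other strand, which had 1628 reads against 24394. Vha100-3 had 5, 5 and 1 reads in treatment, against 0, 9 and 3 in control. It did not pass the filter, and it lies within the span of sano on the other strand, which had 134 reads.

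Shares of subunit a, from reads per base, do not depend on scaling. Vha100-5 supplied 51.2%, 53.3% and 49.9% of them in treatment and 65.4%, 65.0% and 63.8% in control. Vha100-2 supplied 37.3%, 34.4% and 38.2% in treatment and 28.7%, 28.9% and 29.8% in control. Vha100-4 supplied 3.67%, 4.22% and 4.34% in treatment and 0.140%, 0.0770% and 0.126% in control. In all 3 the sets were apart, as they were for Vha100-1, with a mean of 7.82% ± 0.242 in treatment and 5.96% ± 0.189 in control (SD, n = 3 each).

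The share of Vha100-5 differed by -13.3 percentage points, treatment minus control, and those of Vha100-2, Vha100-4 and Vha100-1 by 7.48, 3.96 and 1.86 points. Each exact two-sided permutation p was 0.1, the smallest this design allows, and 0.367 adjusted over the 22 shares tested in 8 subunits. Shares within a subunit sum to 100%, so these differences are not independent of each other. The 22 include Vha14-1, which was at 100% in every library. With reads summed over all transcripts of a locus in place of the most-read transcript, which gives more weight to loci with many transcripts, the differences were -10.7 points for Vha100-5, 3.42 for Vha100-2, 1.91 for Vha100-4 and 5.34 for Vha100-1, which has 10 transcripts. Summed over the 5 genes, subunit a averaged 260 ± 2.19 CPM per kb in treatment and 343 ± 19.8 in control, so the gain of Vha100-4 was smaller than the loss of Vha100-5. Per 100 reads per base of Vha100-5, Vha100-4 had 7.16, 7.93 and 8.70 in treatment and 0.213, 0.118 and 0.198 in control.

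**Figure D3:**
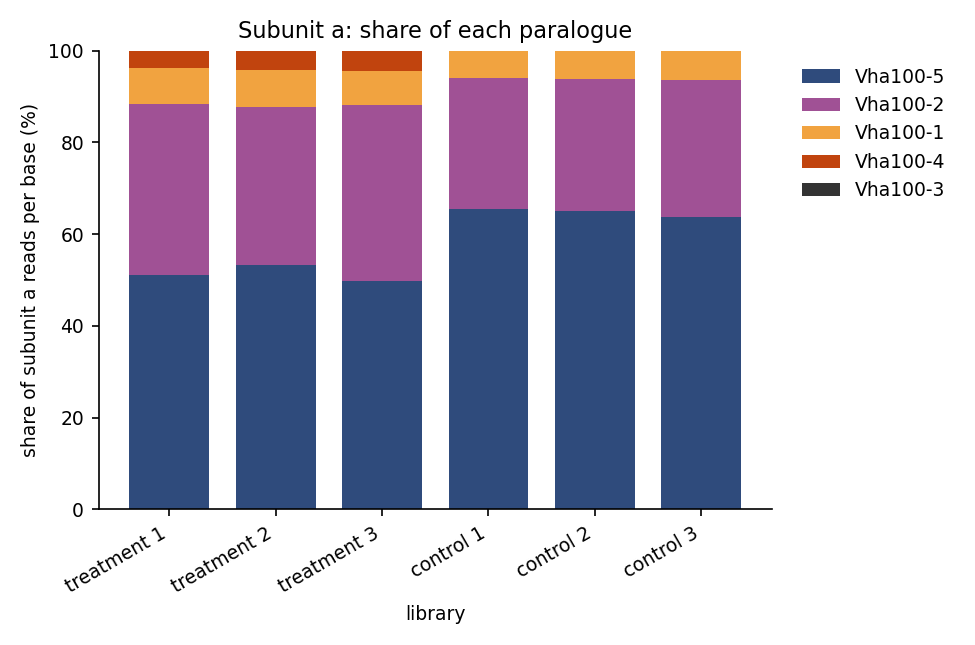
Share of the reads per base on subunit a loci supplied by each of the 5 paralogues, as stacked bars that sum to 100% for each of the 3 treatment and 3 control libraries. The Vha100-5 block spans 49.9% to 53.3% in treatment and 63.8% to 65.4% in control, and the Vha100-4 block at the top is visible only in the treatment libraries.

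Subunit c forms the proton-carrying ring, and Vha16-1 supplied over 99.9% of it in every library. Vha16-1 had 818, 752 and 776 CPM per kb in treatment and 1025, 880.5 and 1037 in control, with no overlap (log2 fold change -0.33, SE 0.05, adjusted p = 7.22e-06). It stayed lower with total reads alone (-0.12, adjusted p = 0.0465). Of the other c genes, Vha16-5 had 3, 1 and 0 reads in treatment, against 3, 1 and 2 in control, and it overlaps CG12299, which had 393 reads.

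VhaPPA1-1 encodes c'', the second kind of ring subunit, and VhaAC39-1 encodes d, which couples the ring to the central stalk. VhaPPA1-1 averaged 347 ± 8.97 CPM per kb in treatment and 391 ± 2.69 in control (log2 fold change -0.17, adjusted p = 0.00120). VhaAC39-1 averaged 252.0 ± 3.30 in treatment and 295 ± 4.44 in control (-0.23, adjusted p = 4.09e-05). With total reads alone VhaPPA1-1 was at 0.032 and VhaAC39-1 at -0.02, neither called. VhaAC39-2, the paralogue for d, had 13, 6 and 3 reads in treatment, against 8, 13 and 10 in control.

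Subunit e, a small membrane protein of V0, was the V0 subunit whose summed level was not lower. It averaged 610 ± 6.33 CPM per kb in treatment and 581 ± 33.7 in control, with overlapping sets. VhaM9.7-b supplied 95.6%, 96.2% and 95.5% of it in treatment and 95.0%, 94.5% and 95.5% in control. Its level was 589, 580.1 and 583 CPM per kb in treatment and 557, 515 and 584 in control, which overlap (log2 fold change 0.08, SE 0.05, adjusted p = 0.144). Scaled by total reads alone it was called higher, at 0.29, beside a median of 0.22 over all loci. VhaM9.7-c, at a far lower level, averaged 23.4 ± 1.88 in treatment and 27.7 ± 0.898 in control (-0.24, adjusted p = 0.0112). That call was lost without treatment replicate 2 (adjusted p = 0.0709) and with total reads alone, at -0.03. VhaM9.7-c shares 799 bases of span with Teh2/Teh3 on the same strand, which had 20 reads against 1700.

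VhaM9.7-a had 29, 7 and 12 reads in treatment, against 6, 12 and 7 in control. Its libraries overlap, and although the main test called it higher (log2 fold change 0.92, SE 0.37, adjusted p = 0.0378), the call was lost with DESeq2 (adjusted p = 0.179), without control replicate 1 (adjusted p = 0.0946), without control replicate 3 (adjusted p = 0.132) and with a replicate block (adjusted p = 0.0754). Without treatment replicate 1 the locus was not tested. As a description of a pair chosen with its values known, Vha16-1 over VhaM9.7-b averaged 1.34 ± 0.0479 in treatment and 1.78 ± 0.0649 in control (SD, n = 3 each).

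Both tested accessory loci were lower with TMM, beside 24.1% lower among all loci and 43.8% among loci of at least 100 CPM. VhaAC45, the membrane glycoprotein bound to V0, had 376, 379 and 370.4 CPM per kb in treatment and 448, 433 and 450.2 in control, with no overlap (log2 fold change -0.24, SE 0.04, adjusted p = 2.19e-05). It was at -0.04 with total reads alone and not called there. VhaM8.9, the fly counterpart of the mammalian prorenin receptor, had 301, 326 and 297 CPM per kb in treatment and 334, 346 and 322 in control. Treatment replicate 2 lay above control replicate 3 (-0.12, adjusted p = 0.0340), and with total reads alone the value was 0.086. Leaving out treatment replicate 1, treatment replicate 3, control replicate 1 or control replicate 2 lost the call (adjusted p up to 0.180). VhaAC45RP, a relative of VhaAC45, had 9, 3 and 4 reads in treatment, against 4, 11 and 4 in control.

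Subunits that sit in the pump together were not equal in level. Mean V1 subunit levels ran between 93.2 CPM per kb for C and 841 for G in treatment and between 112.2 for C and 925.0 for G in control. V0 subunit levels ran between 252.4 for d and 782.0 for c in treatment and between 295 for d and 981 for c in control. Within each sector the lowest and the highest subunit were the same in both sets.

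The size of the fall went with transcript length across these loci. The 6 loci above 100 CPM with transcripts of up to 1500 bases had a median log2 fold change of -0.12, and the 10 longer ones had -0.29. Spearman's rho was -0.61 and Pearson's r -0.52 across the 16 loci, and without Vha100-5 they were -0.60 and -0.62. Across all 1371 loci at that level rho was 0.04. The relation was looked for after the values were seen, the 16 points share 6 libraries, and it is a description with no test. Long loci with a small change were Vha100-2 (-0.07) and VhaSFD (-0.19).

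**Figure D4:**
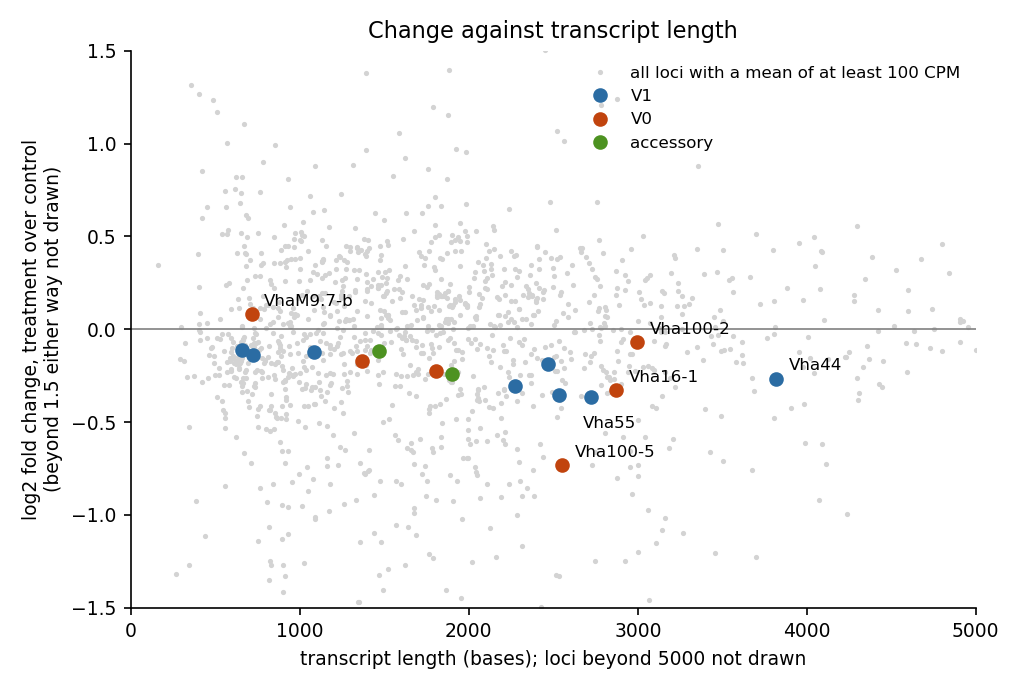
Log2 fold change of treatment over control (TMM) against the length of the transcript used, for V-ATPase loci (large points by sector) and the 1371 loci with a mean of at least 100 CPM (grey). Grey loci beyond the limits of either axis are not drawn. V-ATPase loci of up to 1500 bases lie between -0.17 and 0.08 and longer ones between -0.73 and -0.07, while rho across the 1371 loci was 0.04.

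In the authors' deposited table of gene-level fold changes, 8 of these loci were found by their FlyBase identifier. Vha100-4 had 4.66 there and Vha100-5 had -0.73, on the log2 scale. The other 6 in the authors' deposited table were negative, between -0.37 for Vha55 and -0.12 for VhaM8.9. All 8 had the sign found here. Those values are the authors' own for the same series, so the shared sign is not separate evidence. The 8 were all called here, and no locus left uncalled here was among them.

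Genes that assemble or regulate the pump were read from a list of 6, of which 4 matched a locus and were tested. All 4 were lower with TMM, beside 24.1% lower among all loci, with a median log2 fold change of -0.28. Mitf, the fly member of the TFEB family of transcription factors that drive lysosomal and V-ATPase genes, had 668, 330 and 436 reads in treatment, against 658, 855 and 857 in control. It averaged 34.5 ± 2.34 CPM in treatment and 57.3 ± 2.19 in control, with sets apart, and a log2 fold change of -0.73 (SE 0.07, adjusted p = 4.79e-11) that was -0.52 with total reads alone. Rbcn-3A and Rbcn-3B, the rabconnectins that help V1 rejoin V0, had -0.37 and -0.20, and mtd, a TLDc-domain protein, had -0.18; none of these 3 was called with total reads alone (-0.16, 0.0059 and 0.02). Rbcn-3B also lost its call without treatment replicate 1, and mtd without control replicate 3 or with reads summed over transcripts.

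Ion transporters that work beside proton pumps in epithelia were called in both directions. Of 15 tested, 5 were higher, 5 lower and 5 not called, beside 25% higher and 24.1% lower among all loci, with a median log2 fold change of -0.05. With total reads alone 7 were higher and 4 lower, beside 4127 higher and 1076 lower of all 8137 loci. Their summed level lay between 993 and 999.9 CPM in treatment and between 1165 and 1214 in control. Nha1, a sodium-proton antiporter, averaged 123 ± 5.26 CPM in treatment and 293 ± 9.69 in control (log2 fold change -1.25, adjusted p = 6.84e-21). ClC-a, a chloride channel, averaged 22.3 ± 0.146 in treatment and 63.1 ± 4.26 in control (0.354-fold, adjusted p = 3.70e-18). Nhe1, a sodium-proton exchanger, had -0.59 (adjusted p = 2.77e-09), and all 3 stayed lower with total reads alone. Among those higher, chosen after their values were seen, were nrv2, a sodium pump subunit (0.81, adjusted p = 0.000275), and Ncc69, a sodium-potassium-chloride cotransporter (0.50, adjusted p = 1.80e-06).

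The pump also binds the machinery that recruits the growth kinase complex TORC1 to lysosomes. Of 12 genes tested on that list, 1 was higher, 4 were lower and 7 were not called, beside 25% higher and 24.1% lower among all loci. Their median log2 fold change was 0.01. RagA-B, a GTPase that recruits TORC1, was higher (0.25, adjusted p = 0.000339). Rheb, the GTPase that switches TORC1 on, and Iml1, part of a complex that restrains TORC1, were lower (-0.24 and -0.29). With total reads alone neither was called, and 8 of the 12 were higher, beside 4127 of all 8137 loci.

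The labelled tissue was checked on marker lists, and the counts of called markers stand beside 25% higher and 24.1% lower among all loci. Enterocyte markers (6 of 6 detected) summed to between 4247 and 4486 CPM in treatment and between 3493 and 3515 in control, with 4 higher and 2 lower. Markers of visceral muscle, which is wrapped around the gut, were lower in 7 of 7 genes, summing to between 577 and 602 CPM in treatment and between 1201 and 1259 in control. Enteroendocrine markers summed to between 276 and 294 CPM in treatment and between 407 and 430 in control, with 3 of 5 lower. Their part in the small falls of V-ATPase loci was not tested.

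Markers of organs next to the posterior midgut were also read. Malpighian tubule markers, 7 of 8 of them matched, summed to between 59.7 and 64.4 CPM in treatment and between 119 and 132 in control, mostly from Irk1, a potassium channel gene at 58.5 ± 2.41 CPM in treatment and 120.6 ± 5.81 in control. Of the 3 tested, 2 were lower: Irk1 (log2 fold change -1.04, adjusted p = 2.13e-17) and Irk2 (-1.74, adjusted p = 1.40e-06), which had 13, 15 and 15 reads in treatment, against 36, 47 and 62 in control. Uro, CapaR, Lkr, ZnT35C and Irk3 had at most 23 reads in any library. Uro, also tested, went the other way, with 23, 13 and 19 reads in treatment, against 7, 18 and 7 in control, and sets apart. It was not called (0.78, adjusted p = 0.0566), but it was called higher with total reads alone (adjusted p = 0.0128). Among all loci 24.1% were lower and 25% higher with TMM. The part of tubule tissue in the falls of V-ATPase loci was not tested. Both hindgut markers together stayed at or below 0.886 CPM in every library. Neuron markers, 5 of 6 matched, summed to at most 5.77 CPM in treatment and 6.27 in control. Among them elav was higher, with sets apart, at 39, 21 and 20 reads in treatment, against 7, 10 and 17 in control (1.22, adjusted p = 0.000867). The neuron markers nSyb and Syt1 were not called (0.03 and -0.56), and brp and para were not tested. No matched marker was at 0 in all 6 libraries.

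Markers of the middle midgut, where copper cells lie, moved in different directions beside Vha100-4. The transcription factor lab, needed for copper cell identity, had 52, 30 and 31 reads in treatment, against 5, 5 and 7 in control, with sets apart (log2 fold change 2.70, SE 0.31, adjusted p = 6.27e-09). MtnB, a copper-induced metallothionein, averaged 11.1 ± 0.664 CPM in treatment and 5.00 ± 0.668 in control (1.17, adjusted p = 3.36e-09), and Ptx1, a homeobox factor, had 0.18 (adjusted p = 0.0130) with overlapping sets, a call lost without treatment replicate 1, treatment replicate 3 or control replicate 2 (adjusted p up to 0.0879). The factor dve was not called (0.04, adjusted p = 0.724). MtnA, a second metallothionein and nearly the whole of the list's reads, was lower, at 1416 ± 51.9 CPM in treatment and 3413 ± 284 in control (-1.27, adjusted p = 2.68e-19).

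Summed over the 5 genes, the list had between 1449 and 1554 CPM in treatment and between 3177 and 3742 in control. Of the 5, 3 were higher, 1 was lower and 1 was not called, beside 25% higher and 24.1% lower among all loci, and none of the 5 was at 0. The part of middle midgut tissue in the level of Vha100-4 was not tested.

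**Figure D5:**
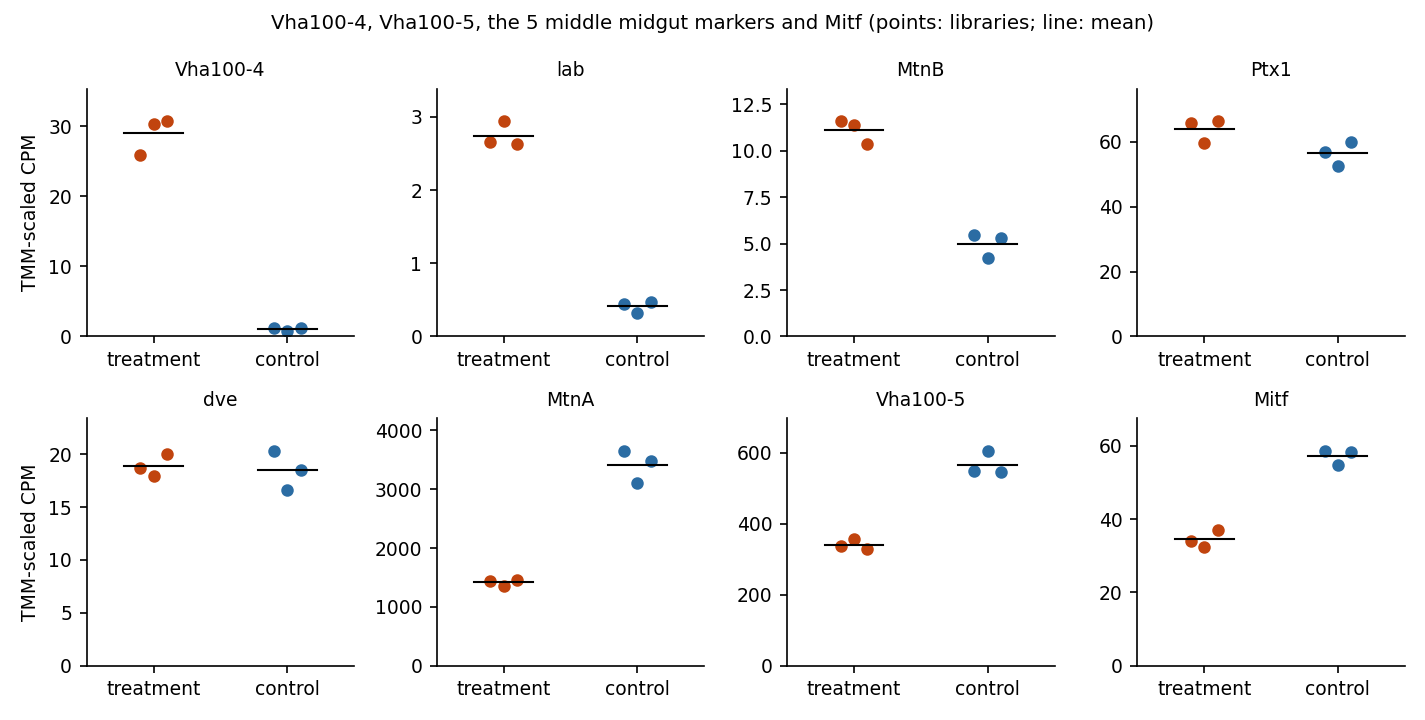
TMM-scaled CPM of Vha100-4, Vha100-5, the 5 middle midgut markers and Mitf; each point is a library, treatment left and control right, each line a mean, and each panel has its own scale starting at 0. Vha100-4, lab and MtnB lie higher in all 3 treatment libraries, Vha100-5, MtnA and Mitf lie lower in all 3, and Ptx1 and dve overlap.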

How the data were processed

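The authors deposited a table of raw read counts for 24047 transcripts in 6 libraries, and a second table with a log2 fold change and p-values per gene, per the file headers. The submitters' processing notes name DESeq; no source read here gives the aligner, build or counting rules. The list of deposited log2 values and p-values was used only where named.

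Transcripts of a locus share reads, so each of 13822 loci was represented by its most-read transcript, after 145 predicted transcripts were left out; 6 loci with a symbol already taken were dropped. 12825 loci took a current symbol from RefSeq (Release 6) by NCBI gene ID. Reads of treatment and control were compared with edgeR 4.0.16 in R 4.3.3 (filterByExpr with a minimum count of 10, TMM, quasi-likelihood test, Benjamini-Hochberg at 0.05), fitted on all loci. Errors are SD over 3 libraries or the fit's SE. Intervals and limits for a count of 0 (3 counts) cover counting error only. Shares of a subunit were compared with exact permutation tests in scipy 1.17.1.

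Chi-square per degree of freedom was 2.45 to 7.64 within sets and 105 to 193 between sets, and each library was counted as 1 sample. In simulated counts over 8054 genes, edgeR recovered 42.4% of 1.2-fold and 81.6% of 1.5-fold changes and called 0.0509% of unchanged genes. Alternatives were total reads alone, DESeq2 1.42.0 and its size factors, no filter, summed transcripts, current symbols, a replicate block and leaving out each library.

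Every tested locus and every list in the text was named by rule: all members whatever their value, and the changed genes with the smallest adjusted p on the other lists. The transporter genes nrv2 and Ncc69 were outside that rule and were chosen after their values were seen. The members, lists and ratios were chosen with earlier results of these data known.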

Additional observations from a re-analysis of the deposited data

How the results depend on the processing

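Under total reads alone, which moved the median log2 fold change of all loci to 0.22, counts changed most. Named loci then gave 3 lower and 3 higher, V1 gave 2 lower, V0 gave 1 lower and 3 higher, all 34 gave 4 lower and 5 higher, and all loci gave 4127 higher and 1076 lower. Signs turned there for Vha100-1 (0.19), Vha100-2 (0.13), VhaPPA1-1 (0.032), Vha68-1 (0.064), Vha36-1 (0.081), Vha14-1 (0.093), Vha13 (0.066), VhaSFD (0.019) and VhaM8.9 (0.086). The scaling factors were 1.06 to 1.09 in treatment and 0.922 to 0.940 in control.

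Vha100-4 and Vha100-5 kept their direction and call in every alternative run. With current symbols, 2 loci counted as higher where the table's own names give 0. The 2 higher loci of all 34 became 1 with DESeq2, 1 with the replicate block, between 1 and 2 when single libraries were left out, and 0 at a mean of at least 100 CPM. All loci gave 1599 higher with DESeq2, 2106 with the replicate block and 1829 to 1919 when single libraries were left out. V1 gave between 5 and 8 lower when single libraries were left out, with 5 without treatment replicate 1. Among all loci those runs gave 1735 to 1927 lower. Vha100-1, close to 0, was positive with reads summed over transcripts (0.0044) and ranged from -0.072 to 0.035 when single libraries were left out. With summed reads the share differences were 1.91 points for Vha100-4 and -10.7 for Vha100-5. Summing gives more weight to loci with many transcripts, and Vha100-1 has 10, while Vha100-4 and Vha100-5 have 1 each. The cause of the other changes was not tested.

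Libraries with the same number deviated together with correlations of 0.01, 0.09 and 0.02, so the numbers were not taken to pair them. With the replicate block 13 named loci were lower, beside 2010 lower and 2106 higher of all 8137 loci.

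VhaM8.9 and Vha14-1 also lost their calls with summed reads (adjusted p = 0.0672 and 0.0606). Depth limits the 10 loci with 1 to 100 reads, of which 1 was tested.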
